A study of Caenorhabditis elegans with 30 samples.

Results

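The F-box A genes of the nematode *C. elegans* are a family of F-box genes that WormBase names fbxa- followed by a number. All genes with such a name were taken, leaving out *fbxa-75* and *fbxa-158*. This gave 169 of the 19988 genes in the count tables, 168 of them annotated as protein-coding in Ensembl release 115. The other is *fbxa-21* (Y119D3B.9), an annotated pseudogene that takes its name from RefSeq. A further 51 fbxa names that RefSeq lists as pseudogenes were not analysed here.

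An F-box is a short protein motif that binds a SKR (Skp1-related) adaptor, and through it a cullin scaffold such as CUL-1 or CUL-6. The resulting SCF complex is a ubiquitin ligase, which attaches ubiquitin to other proteins and so marks many of them for the proteasome. The F-box protein is the interchangeable subunit that picks the substrate. Proteins of the F-box A family pair the F-box with a second region, the FTH or DUF38 domain, which is thought to hold the substrate. The family is large and changes quickly between nematode species, and the substrates of nearly all of its members are unknown, so members are grouped below by genome position and by response rather than by target.

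RNA was sequenced from whole animals collected at the last larval stage (L4), in 10 groups of 3 libraries. Animals of 3 genotypes, the mutants *flor-1(icb93)* and *old-1(ok1273)* and the wild type N2, were taken after exposure to an extract of *Myzocytiopsis humicola*, an oomycete that infects the worm, and untreated. OLD-1 is a receptor tyrosine kinase and FLOR-1 a related pseudokinase, and these 6 groups address which responses to the extract need either protein. In a second experiment, animals carrying the extrachromosomal array icbEx308 (*old-1p::OLD-1::GFP* with the marker *bus-1p::GFP* and the carrier DNA pBJ36) in an icbIs4 background were set against animals without the array from the same strain, labelled N2(icbIs5). In the last, animals carrying icbEx359, in which the epidermal *dpy-7* promoter drives *old-1*, were set against icbEx360 animals, and both arrays held a hygromycin resistance gene and pBJ36. The labels of the icbEx360 animals, called the hygromycin control below, name no extract, while one legend of the study can be read as giving them extract, so their treatment is taken here from the labels. An extrachromosomal array is passed on unevenly and is not present in every cell of an animal. The strain list gives *flor-1(icb93)* together with icbIs5, a *chil-27p::GFP* and *col-12p::mCherry* reporter, which the sample labels of that group do not name. Nothing in the labels says that the 3 libraries of a group came from separate cultures, so p-values measure the spread between these libraries.

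Libraries held between 19214839 and 38956390 estimated counts. The *old-1* gene itself stood at 42.4 to 60.4 CPM (counts scaled by library total) in *old-1p::old-1* animals, against 0.575 to 0.978 CPM in their siblings. It stood at 48.8 to 80.0 CPM in *dpy-7p::old-1* animals, against 0.96 to 1.44 CPM in the hygromycin control. Reads on *old-1* remained in the ok1273 mutant, at 0.548 to 1.22 CPM over both treatments, against 1.55 to 3.44 CPM in N2. Markers of epidermis, muscle, pharynx, intestine, neurons and germline had counts in every library, but some moved with the comparisons. In N2 with extract 3 of 3 germline, 2 of 3 muscle, 1 of 2 pharynx and 1 of 3 intestine markers were lower and 2 of 4 epidermis and 2 of 3 neuron markers higher. In *dpy-7p::old-1* animals 3 of 3 muscle, 3 of 3 intestine, 2 of 2 pharynx and 1 of 3 neuron markers were lower, 2 of 3 germline markers higher, and 1 of 4 epidermis markers went each way. Their part in the results below was not tested. Libraries that share a label differed in 15 genes of yolk and oocytes, whose expression starts as animals approach adulthood: their mean log2 CPM, the yolk level below, was 1.58 to 1.67 in extract-treated N2, against 1.73 in untreated N2 A and 6.09 in C, with B near C. It was 1.32 to 1.84 in all *old-1(ok1273)* libraries and 6.84 to 7.11 in all *flor-1(icb93)* libraries. In the transgene experiments it was 7.54 to 10.62 with *old-1p::old-1* against 5.44 to 8.95 in the siblings. With *dpy-7p::old-1* it was 9.83 to 10.35, against 9.08 to 9.47 in the hygromycin control. The 6 *flor-1(icb93)* libraries also had shorter fragments, with a length minus effective length of 154.6 to 165.4 bases, against 239.8 to 273.4 bases in the other 24 libraries.

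Most F-box A genes were expressed at low levels. Of the 169 members, 168 had a count in at least 1 library and 122 in all 30, while *fbxa-102* had none. The median of their mean levels was 1.58 CPM, with 100 members at or above 1 CPM and 18 under 0.1 CPM. Scaled by length, the highest mean levels belonged to *fbxa-72* (66.3 TPM, transcript counts scaled by length and total), *fbxa-215* (26.2 TPM), *fbxa-101* (19.1 TPM), *fbxa-60* (18.7 TPM), *fbxa-116* (16.7 TPM) and *fbxa-156* (14.9 TPM). For bulk RNA of whole animals, fewer cells of a type and less RNA per cell cannot be told apart.

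The genes were concentrated on 2 chromosomes, with 71 members on V, 60 on III, 14 on X, 13 on II, 6 on I and 5 on IV. When neighbouring members no more than 20000 bases apart were joined, 117 members fell into 24 clusters of 2 or more. The largest held 26 members (chromosome III, 1236015 to 1349450, build WBcel235), followed by one of 15 members (III, 2219708 to 2314035) and one of 10 (III, 933422 to 963833). Some members shared reads with other genes, and their sequences were not compared. The estimated count of 57 members was not a whole number in at least 1 library, and for 18 members the partner of the split was another member, as in the pairs *fbxa-36* and *fbxa-37*, *fbxa-9* and *fbxa-48*, *fbxa-112* and *fbxa-148*, and *fbxa-156* and *fbxa-157*. The counts of *fbxa-40* and *fbxa-41* were the same in every library, so these are 1 measurement under 2 names.

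The F-box A genes held more of the RNA of N2 after extract, and a part of this came from *fbxa-116* alone, whose levels are given further below. The summed level of all members was 815 to 879 CPM in the 3 extract-treated N2 libraries, against 540 to 608 CPM in the 3 untreated ones, and the groups did not overlap. Of 145 members that passed the filter on low counts, 40 rose and 21 fell at p under 0.01 and adjusted p under 0.1, the thresholds used throughout (edgeR's quasi-likelihood test with Benjamini-Hochberg adjustment over 16850 genes). The 40 were 27.6% of the members tested, beside 14.7% of all genes called higher in the same comparison. The 21 were 14.5%, beside 20.4% of all genes called lower. The median log2 fold change of the members was 0.13, against −0.01 for all genes. The filter left 24 members untested, and *fbxa-28*, *fbxa-45*, *fbxa-148*, *fbxa-171* and *fbxa-174* passed it only through the extract-treated N2 libraries. With no filter, 164 members were tested and the same 40 rises and 21 falls were called (37.2%, beside 30.5% of all genes). With only the 2 N2 groups in the fit, 30 rose and 6 fell (26.7%, beside 14.4% of all genes). Setting each library's yolk and oocyte level as a covariate gave 28 rises and 12 falls (27.6%, beside 14.6% of all genes). With untreated N2 A as the only untreated N2 library, the median log2 fold change of the members was 0.15.

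The strongest responses came from 3 members that were at or near 0 in untreated N2, shown in the plot of levels by library. The first, *fbxa-116* (WBGene00013754, chromosome V, 20187657 to 20188890), had 104, 101 and 138 CPM in extract-treated N2, against 0.377, 0.258 and 0.253 CPM in untreated N2. Every extract-treated library lay far above every untreated one, with the groups far apart. Its log2 fold change was 8.52 (standard error 0.32, adjusted p = 3.76e-11, edgeR's quasi-likelihood test). The others had no counts at all in untreated N2. With extract, *fbxa-28* (WBGene00022477, chromosome III, 1297904 to 1299484) stood at 7.29, 5.28 and 6.14 CPM, and its 443 counts against 0 put it at least 150.0-fold higher, with a floor of 3 counts over the group of untreated libraries (adjusted p = 2.61e-05, edgeR). Likewise, *fbxa-174* (WBGene00008015, chromosome V, 17555854 to 17558477) stood at 5.93, 6.64 and 5.64 CPM with extract, and its 441 counts against 0 put it at least 149.0-fold higher (adjusted p = 2.43e-07, edgeR). Floors and intervals of this kind cover counting error only. None of the untreated N2 libraries came near the treated ones for these 3 members. Among the untreated libraries only A was of low yolk level, and no cause was tested.

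**Figure D1:**
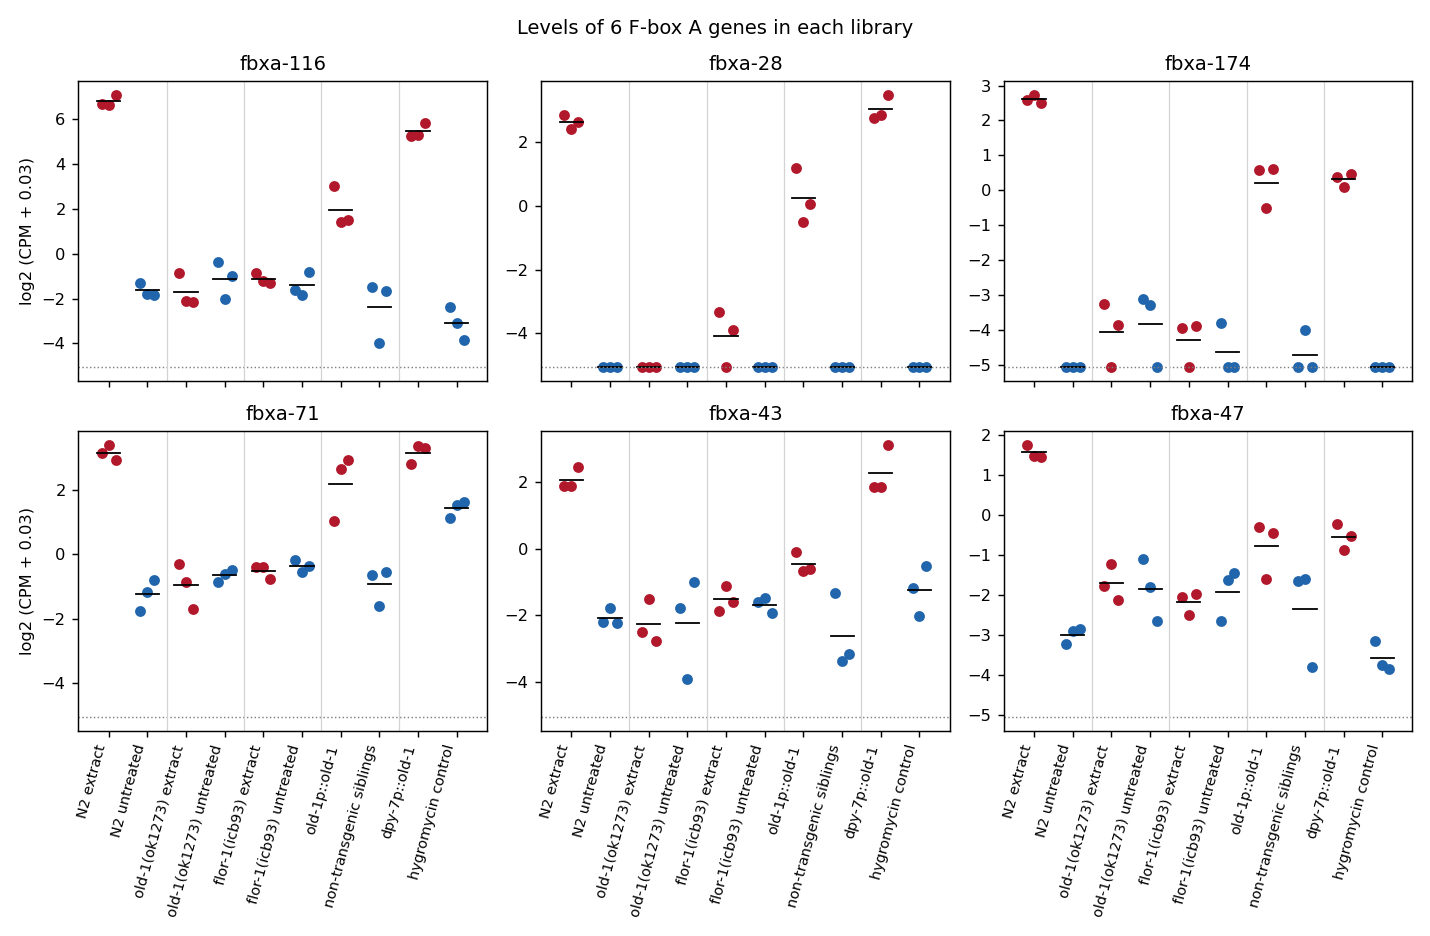
Levels of 6 F-box A genes in each of the 30 libraries, as log2 of CPM plus 0.03, with the group mean as a bar; red points are extract-treated or transgenic animals, blue points are untreated animals or controls, and the dotted line marks 0 counts. For all 6 genes the extract-treated N2 libraries lie above every library of both mutants, and *fbxa-28* is at 0 counts in untreated N2, in both *old-1(ok1273)* groups and in both transgene controls.

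On chromosome III, the cluster of 15 members from *fbxa-12* to *fbxa-66* held 8 of the 40 rises and none of the falls, with 14 members tested. Within it *fbxa-71* and *fbxa-43* are convergent neighbours with 280 bases between their ends. In extract-treated N2 *fbxa-71* (WBGene00020639, 2255822 to 2257247) had 8.80, 10.6 and 7.49 CPM, against 0.264, 0.413 and 0.542 CPM in untreated N2 (log2 fold change 4.40, standard error 0.30). The next gene, *fbxa-43* (WBGene00020638, 2257527 to 2258963), had 3.64, 3.65 and 5.41 CPM with extract, against 0.189, 0.258 and 0.181 CPM without (4.30, standard error 0.46). The groups of both genes were far apart, with adjusted p-values of 3.68e-08 and 6.11e-06 in edgeR's quasi-likelihood test. Nearer the start of the cluster *fbxa-47* (WBGene00016527, 2229992 to 2232460) had 3.33, 2.73 and 2.69 CPM with extract, against 0.0754, 0.103 and 0.108 CPM without (4.83, standard error 0.41). Smaller rises were called for *fbxa-48*, *fbxa-66*, *fbxa-9*, *fbxa-39* and *fbxa-219*, with log2 fold changes of 3.71, 2.34, 1.83, 1.79 and 0.90, that of *fbxa-48* resting on 17 counts against 1, a ratio of 17.3 (95% counting interval 2.71 to 723). The rise was not shared by every gene of the run: *fbxa-42*, which starts 943 bases beyond *fbxa-43*, had 0.364, 0.886 and 0.192 CPM with extract, against 0.113, 2.17 and 3.58 CPM without, overlapping groups and no call. The cluster of 26 members that holds *fbxa-28* gave 6 rises and 5 falls among 25 tested. There, *fbxa-50*, *fbxa-36* and *fbxa-35*, the 3 members just before *fbxa-28*, rose by 1.43, 2.91 and 1.74 on the log2 scale.

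**Figure D2:**
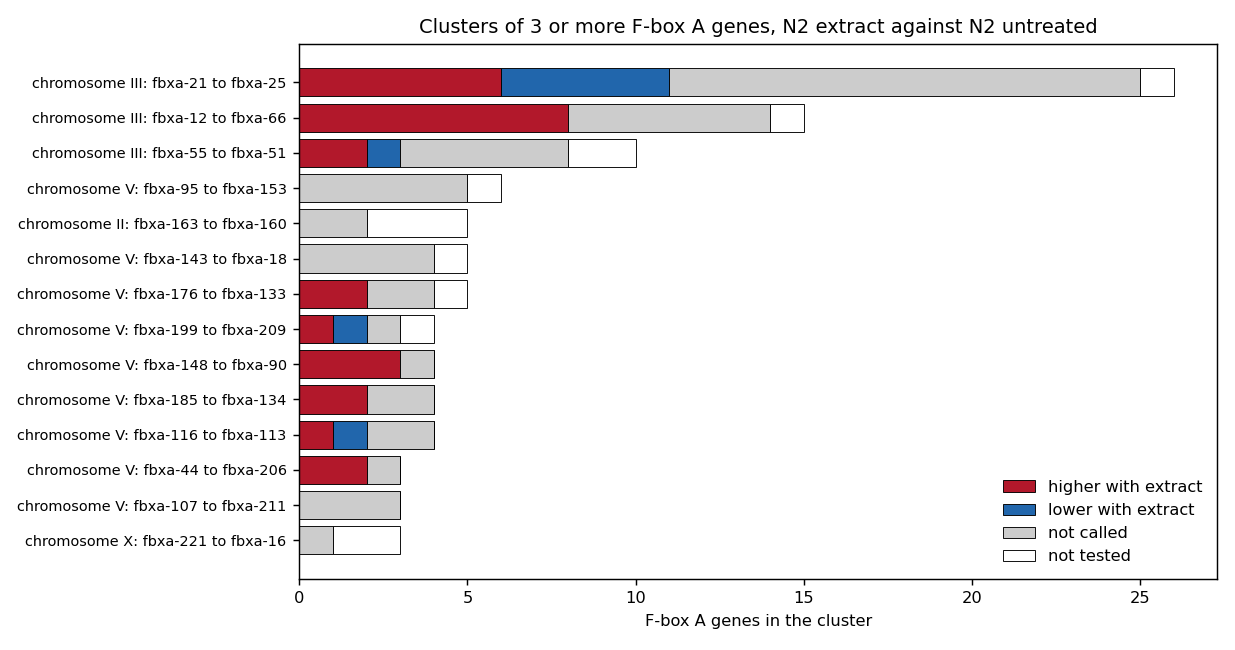
Number of F-box A genes in each cluster of 3 or more members (neighbours no more than 20000 bases apart), split by their call in extract-treated against untreated N2 and named by the first and last member on the chromosome. The cluster from *fbxa-12* to *fbxa-66* holds 8 rises and 0 falls, while the cluster from *fbxa-21* to *fbxa-25* holds 6 rises and 5 falls.

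On chromosome V the rises sat in several short runs. In the run *fbxa-148*, *fbxa-111*, *fbxa-112* and *fbxa-90*, the first 3 members rose. Of these, *fbxa-111* (WBGene00013620, 16947142 to 16949709), had 10.98, 12.04 and 10.87 CPM with extract, against 1.66, 1.45 and 0.975 CPM without (log2 fold change 3.02, standard error 0.19, adjusted p = 1.6e-08, edgeR's quasi-likelihood test). Its neighbour *fbxa-112* (4.62, standard error 0.39) lies inside the span of *fbxa-111* on the same strand and split reads with *fbxa-148* (3.82, standard error 0.62), so the 3 values are not fully separate. Between *fbxa-112* and *fbxa-90*, the lectin genes *clec-238* and *clec-239* were lower with extract, at −1.48 and −2.57.

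In the run *fbxa-176*, *fbxa-174*, *fbxa-172*, *fbxa-171* and *fbxa-133*, the rises belonged to *fbxa-174* and *fbxa-171*. Extract-treated N2 had 1.20, 1.37 and 1.54 CPM of *fbxa-171* (WBGene00008009, 17563210 to 17566003), against 0.0754, 0 and 0.0722 CPM in untreated N2 (4.52, standard error 0.67). Between them *fbxa-172* had 0.885, 0.480 and 0.307 CPM with extract, against 0.151, 0.361 and 0.253 CPM without, and was not called. Just beyond, C38D9.2, no F-box A gene, rose by 2.44 on the log2 scale.

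Another run, *fbxa-44*, *fbxa-45* and *fbxa-206*, begins next to a group of strongly extract-responsive genes that are not F-box A genes: *ifas-2*, F09C6.13 and F09C6.12 lie within 6021 bases of *fbxa-44* and were higher with extract, *ifas-2* by 6.86 and F09C6.12 by 6.14 on the log2 scale. Closest to them, *fbxa-44* (WBGene00008616, 16889275 to 16890749) had 7.96, 6.46 and 5.03 CPM with extract, against 1.43, 0.465 and 0.325 CPM without (3.07, standard error 0.36). Further on, the 46 counts of *fbxa-45* with extract against 3 without gave a ratio of 15.6 (95% counting interval 5.01 to 78.4). The last gene of the run, *fbxa-206*, had 4.58, 4.13 and 3.61 CPM with extract, against 3.47, 4.03 and 4.26 CPM without, and the groups overlapped. The neighbours *fbxa-188* and *fbxa-189*, also on chromosome V, rose by 2.44 and 2.01, and *fbxa-188* shares some reads with the adaptor gene *skr-5*. In its own small cluster *fbxa-135* (WBGene00011539, 15402264 to 15404409) had 6.82, 4.17 and 3.30 CPM with extract, against 0.189, 0.258 and 0.217 CPM without (4.37, standard error 0.33). Outside the clusters, *fbxa-86* on chromosome IV had 1.72, 0.960 and 0.691 CPM with extract, against 0.189, 0.103 and 0.108 CPM without (2.94, standard error 0.48).

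Of all the calls in N2, 34 of the 40 members that rose lay in clusters, as did 10 of the 21 that fell and 58 of the 84 not called. The 34 include *fbxa-40* and *fbxa-41*, which are 1 measurement. They also include both members of pairs that split reads, such as *fbxa-36* and *fbxa-37*, so these calls are not all separate. Of the 40, 17 were on chromosome III and 15 on V. Counts were whole in every library for 21 of the 40, and the other 19 shared reads in at least 1 library. The 15 members of the 40 with the largest changes had log2 fold changes from 2.94 up, the rest from 0.46 (*fbxa-106*) to 2.91 (*fbxa-36*). Among them *fbxa-182*, which shares reads with F42G2.2, had 20.98, 18.02 and 14.97 CPM with extract, against 3.66, 2.27 and 2.38 CPM without (2.65, standard error 0.18). The pseudogene *fbxa-21* had 17.7, 14.2 and 11.1 CPM with extract, against 5.28, 2.27 and 1.73 CPM without (2.17, standard error 0.29). Both were higher in every treated library than in any untreated one.

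Most of the larger falls in N2 came from untreated B and C, the libraries of high yolk level. With extract *fbxa-202* (WBGene00020890, chromosome V, 6327280 to 6328865) had 1.87, 1.96 and 1.46 CPM, against 1.58, 7.74 and 9.86 CPM in untreated N2 A, B and C. Untreated A lay inside the treated range, and the fall (log2 fold change −1.92, standard error 0.43, adjusted p = 0.00255, edgeR's quasi-likelihood test) came from B and C. The same held for *fbxa-155* (chromosome III, 10007966 to 10010217), with 1.35, 1.92 and 1.04 CPM against 0.905, 6.97 and 6.54 CPM, and for *fbxa-196* (chromosome V, 6448656 to 6450217), with 0.937, 1.29 and 1.11 CPM against 1.13, 4.80 and 6.32 CPM. With untreated A alone as the reference, the log2 fold changes of *fbxa-202*, *fbxa-155* and *fbxa-196* turned to 0.16, 0.68 and 0.01, with none called. Further falls of this kind were *fbxa-224* (0.260, 0.185 and 0.269 CPM against 0.264, 1.86 and 1.99 CPM), *fbxa-201* (0.520, 0.591 and 0.576 CPM against 0.754, 2.79 and 3.47 CPM) and *fbxa-147* (0, 0.0369 and 0 CPM against 0.0754, 1.497 and 2.059 CPM). The call for each was lost without B and C. A fall that did not depend on them was that of *fbxa-141* (chromosome X, 14511248 to 14512917), with 0.677, 0.295 and 0.461 CPM with extract, against 1.32, 1.6 and 1.445 CPM without (−1.67, standard error 0.34, adjusted p = 0.00137, edgeR). All 15 yolk and oocyte genes were lower with extract in N2, with a median of −2.60, and their part in the falls was not tested beyond these alternatives.

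The plot against yolk level places these members over all 30 libraries. The 6 *flor-1(icb93)* libraries, with yolk levels of 6.84 to 7.11, had 13.11 to 14.99 CPM of *fbxa-202*, and *old-1p::old-1* B and C, at yolk levels of 10.32 and 10.62, had 4.17 and 1.72 CPM. A different course was seen for *fbxa-215* (WBGene00012879, chromosome IV, 13665364 to 13666909), which had 7.60 to 12.6 CPM in the 12 N2 and *old-1(ok1273)* libraries and 137 and 175 CPM in *old-1p::old-1* B and C. These are descriptions over libraries that also differ in genotype and experiment.

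**Figure D3:**
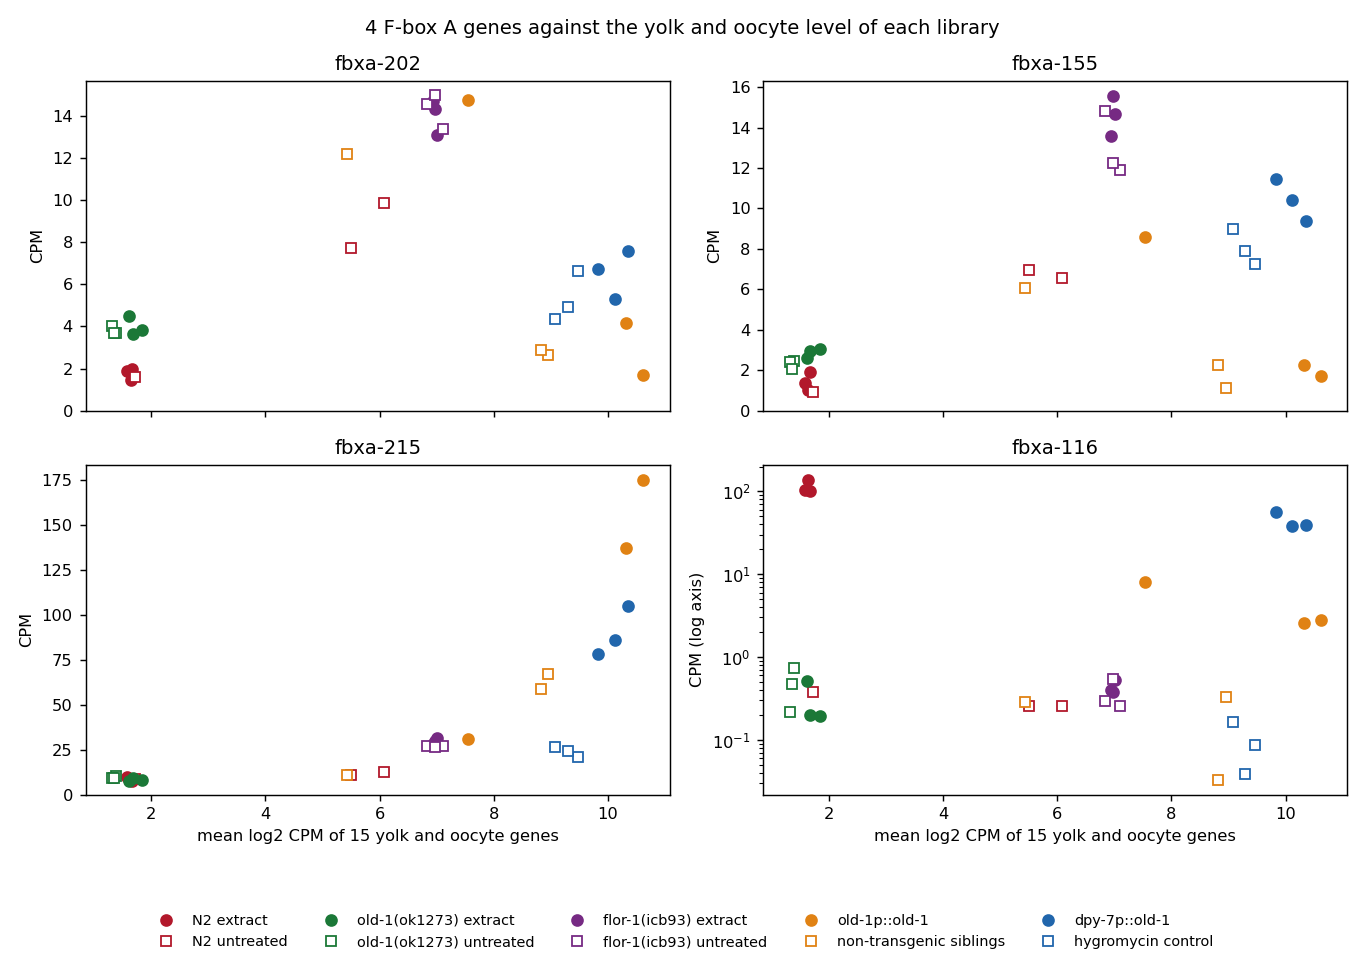
CPM of 4 F-box A genes against the mean log2 CPM of 15 yolk and oocyte genes in each library, with filled points for extract-treated or transgenic animals and open points for untreated animals or controls. *fbxa-202* and *fbxa-155* are highest in libraries of middle yolk level such as *flor-1(icb93)*, *fbxa-215* is highest at 137 and 175 CPM in *old-1p::old-1* B and C, which are among the 3 libraries of highest yolk level, and *fbxa-116* is above 100 CPM only in extract-treated N2.

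A further fall called in N2, that of *fbxa-78*, rests on estimates that switch between 0 and a full set of counts. This gene is listed at 0 in all 3 extract-treated N2 libraries, against 3.24, 4.39 and 2.02 CPM in untreated N2. It had counts in only 8 of the 30 libraries, and in 5 of the other groups 1 library of the 3 held 55 counts or more while the others were listed at 0. Its call was lost in 7 of 14 alternatives, DESeq2 and the leaving out of single libraries among them.

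Neither mutant gave a rise that passed the thresholds. In *old-1(ok1273)*, 0 members were called higher, beside 12.7% of all genes, and 26 were called lower, beside 11.3% of all genes. The median log2 fold change of the 145 members was −0.38, against −0.01 for all genes. Their summed level was 532 to 568 CPM in extract-treated mutants, against 651 to 702 CPM in untreated ones, without overlap. At an unadjusted p under 0.05, 51 members (35.2%) passed in either direction, beside 35.7% of all genes, and DESeq2 called 0 higher and 28 lower (19.3%, beside 25.2% of all genes called in either direction). The members that rose most in N2 were not called. In *old-1(ok1273)*, *fbxa-116* had 0.516, 0.199 and 0.196 CPM with extract, against 0.733, 0.217 and 0.473 CPM without. No counts of *fbxa-28* were found in any of the 6 libraries of this mutant, and *fbxa-174* had 0.0738, 0 and 0.0392 CPM with extract, against 0.0863, 0.0725 and 0 CPM without. Likewise, *fbxa-71* had 0.775, 0.517 and 0.274 CPM with extract, against 0.518, 0.616 and 0.688 CPM without.

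The falls in *old-1(ok1273)* were of modest size, with log2 fold changes between −1.89 and −0.36. The best supported was *fbxa-74* (WBGene00021262, chromosome III, 1696952 to 1698986), with 9.07, 8.67 and 8.66 CPM in extract-treated mutants, against 15.7, 17.8 and 16.6 CPM in untreated ones (−0.97, standard error 0.10, adjusted p = 2.36e-06, edgeR's quasi-likelihood test), a gene named after its values were seen. The largest changes were those of *fbxa-30* (−1.89), *fbxa-82* (−1.46), *fbxa-176* (−1.35), *fbxa-166* (−1.29) and *fbxa-85* (−1.29). For *fbxa-30* the levels were 0.148, 0.159 and 0.274 CPM with extract, against 0.690, 0.616 and 0.817 CPM without. For *fbxa-82* they were 1.36, 1.03 and 1.06 CPM with extract, against 2.16, 3.04 and 4.04 CPM without. Neither gene overlapped between groups. Yolk levels in these 6 libraries were all low. With the yolk covariate 34 members fell and 0 rose (23.4%, beside 30.4% of all genes called in either direction).

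In *flor-1(icb93)*, 0 members were called higher and 0 lower, beside 0% of all genes called higher and 0% called lower. At an unadjusted p under 0.05, 3 of 145 members passed (2.07%, beside 3.82% of all genes), and DESeq2 called 0 (beside 0.202% of all genes). The summed level of the family was 750 to 781 CPM with extract, against 710 to 767 CPM without, and the groups overlapped. With extract *fbxa-116* had 0.526, 0.397 and 0.373 CPM, against 0.296, 0.253 and 0.539 CPM without. For *fbxa-28* there were 2, 0 and 1 counts with extract, against 0 in all 3 untreated libraries. These mutant libraries all had higher yolk levels than treated N2 and *old-1(ok1273)*, and shorter fragments, so genotype, yolk level and fragment length cannot be told apart between *flor-1(icb93)* and the other genotypes.

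The difference between the responses was tested directly. Relative to N2, the response of *old-1(ok1273)* was lower for 48 members, beside 13.1% of all genes, and higher for 9, beside 18% of all genes (interaction term, edgeR's quasi-likelihood test). The largest deficit with a finite error was that of *fbxa-116*, at −9.15 (standard error 0.63, adjusted p = 1.47e-07 in edgeR). Other deficits were those of *fbxa-135*, *fbxa-47*, *fbxa-112*, *fbxa-43* and *fbxa-71*, at −4.84, −4.81, −4.71, −4.69 and −4.65. The response of *flor-1(icb93)* was lower than that of N2 for 29 members, beside 9.48% of all genes, and higher for 13, beside 14.4% of all genes. There *fbxa-116* had a deficit of −8.35 (standard error 0.60, adjusted p = 2.78e-07 in edgeR), and *fbxa-47*, *fbxa-135*, *fbxa-71*, *fbxa-112* and *fbxa-43* deficits of −5.26, −4.73, −4.55, −4.23 and −4.10. Both differences share the N2 libraries. Since *fbxa-28* had 0 counts in both *old-1(ok1273)* groups, its difference could not be fitted with a finite error (adjusted p = 1.0 for each mutant in edgeR). Members whose response was higher in the mutants, among them *fbxa-201*, *fbxa-224*, *fbxa-196* and *fbxa-155*, are among those whose fall in N2 came from untreated B and C. With the yolk covariate the *old-1(ok1273)* difference was lower for 36 members and higher for 0 (24.8%, beside 20.2% of all genes in either direction).

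**Figure D4:**
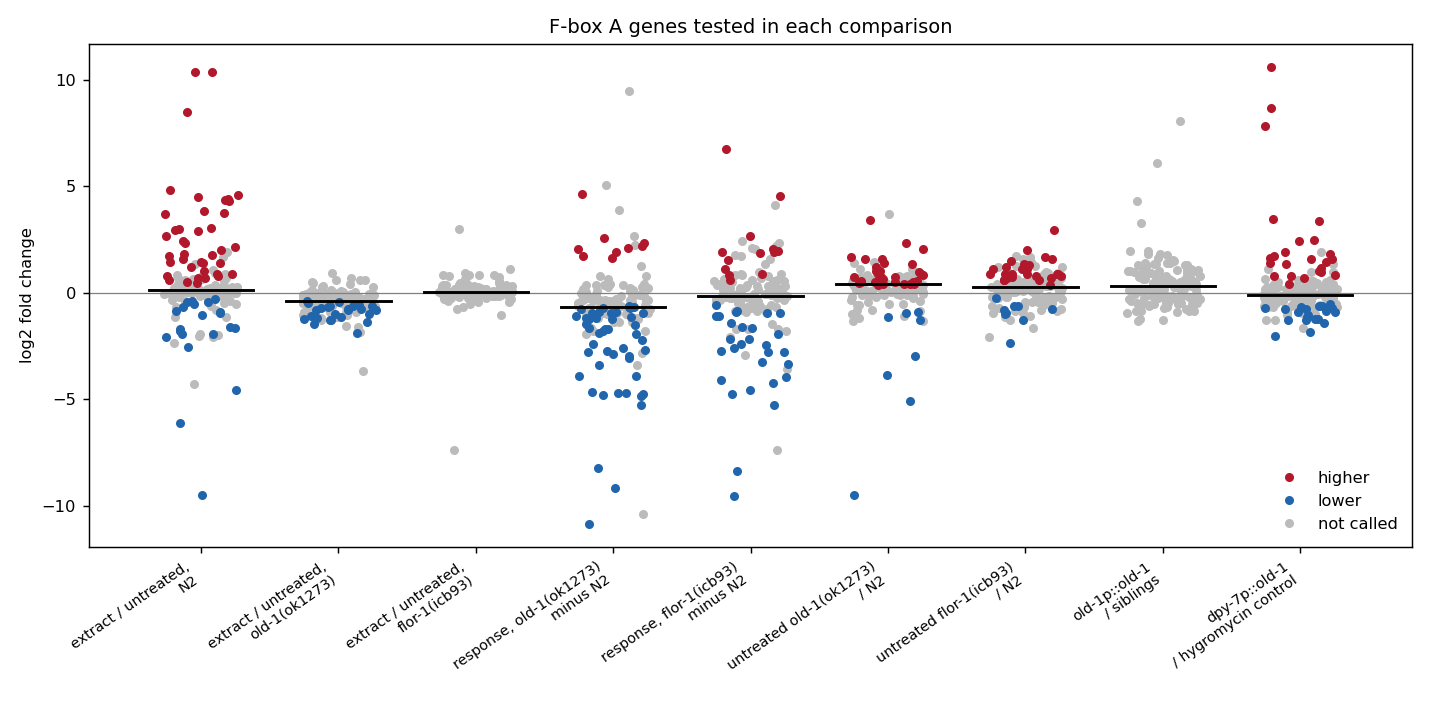
Log2 fold change of each F-box A gene tested (141 to 145 per comparison) in the 9 comparisons, with called members in red (higher) or blue (lower), the rest in grey and the median as a bar. Called rises number 40 in N2 with extract, 33 in untreated *old-1(ok1273)*, 26 in untreated *flor-1(icb93)* and 24 in *dpy-7p::old-1* animals. These are 27.6%, 22.8%, 17.9% and 16.8% of the members tested, beside 14.7%, 15.7%, 20.9% and 24.9% of all genes. The response differences of *old-1(ok1273)* and *flor-1(icb93)* hold 9 and 13. With extract, *old-1(ok1273)* has 26 falls (17.9%, beside 11.3% of all genes) and 0 rises, and *flor-1(icb93)* has 0 of either.

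Without extract the mutants also differed from N2. In untreated *old-1(ok1273)*, 33 members were higher than in untreated N2, beside 15.7% of all genes, and 8 were lower, beside 23.3% of all genes (edgeR's quasi-likelihood test). These counts leaned on the untreated N2 libraries. Without untreated N2 B, 20 were higher and 5 lower (16.8% of the members tested, beside 30.1% of all genes). Without C the counts were 22 and 5 (18.1%, beside 30.2%), and with the yolk covariate 12 and 2 (9.66%, beside 26.5%). With only the 2 groups in the fit they were 19 and 2 (16.3%, beside 22.7%). With A as the only N2 library, the median log2 fold change of the members was 0.25, against 0.41 with all 3. Levels of *fbxa-135* were 0.906, 1.16 and 1.38 CPM in the mutant, against 0.189, 0.258 and 0.217 CPM in N2 (2.35, standard error 0.36). Levels of *fbxa-44* were 2.59, 2.75 and 2.06 CPM in the mutant, against 1.43, 0.465 and 0.325 CPM in N2 (1.71, standard error 0.36), again without overlap. Other rises among the largest were *fbxa-21* (2.06), *fbxa-163* (1.602) and *fbxa-66* (1.59). The call of *fbxa-163* was lost in 9 of 14 alternatives and that of *fbxa-66* in 4 of 15, while that of *fbxa-21* was kept in all 15. In the other direction, *fbxa-42* (WBGene00044676, chromosome III, 2259906 to 2261453) had 0.172, 0 and 0 CPM in untreated *old-1(ok1273)*, against 0.113, 2.17 and 3.58 CPM in untreated N2 (−5.09, standard error 1.17, adjusted p = 0.00247, edgeR), and the lowest N2 library overlapped the mutant. In the same mutant with extract it had 0.221, 0 and 0.0392 CPM, while the 6 *flor-1(icb93)* libraries had 6.03 to 7.18 CPM. The falls of *fbxa-147*, *fbxa-96* and *fbxa-196* (−3.86, −2.94 and −1.28) were also among the calls, and with untreated N2 A as the only N2 library the values of *fbxa-147* and *fbxa-196* turned to 0.12 and 0.63.

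In untreated *flor-1(icb93)*, 26 members were higher than in untreated N2, beside 20.9% of all genes, and 9 were lower, beside 19.8% of all genes (edgeR's quasi-likelihood test). With only these 2 groups in the fit the counts were 17 and 6 (17.6% of the members tested, beside 27% of all genes). Here *fbxa-135* had 0.930, 0.940 and 1.10 CPM in the mutant, against 0.189, 0.258 and 0.217 CPM in N2 (1.99, standard error 0.36), from the same N2 libraries as the comparison with *old-1(ok1273)*. The neighbours *fbxa-188* and *fbxa-189* rose by 1.57 and 1.49, with 4.40, 4.16 and 4.03 CPM of *fbxa-188* in the mutant, against 1.70, 1.65 and 0.470 CPM in N2. Also higher were *fbxa-99* (1.35) and *fbxa-125* (1.70), the second ranging from 0.31 to 4.41 over the alternatives and losing its call with the yolk covariate and with only the compared groups in the fit. The clearest fall was that of *fbxa-192*, with 5.79, 4.63 and 5.67 CPM in the mutant, against 10.48, 12.96 and 10.73 CPM in N2 (−1.26, standard error 0.15, adjusted p = 5.09e-06, edgeR). In untreated *old-1(ok1273)* this gene stood at 5.995, 5.076 and 6.708 CPM, also below all N2 libraries (−0.96).

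With *old-1* overexpressed from its own promoter, 4 members picked from the extract response were higher in every library, with no call. In *old-1p::old-1* animals 0 members of 141 were called higher, beside 0.0921% of all genes, and 0 lower, beside 0.0246% of all genes (edgeR's quasi-likelihood test). At an unadjusted p under 0.05 there were 25 members, or 17.7%, beside 19.2% of all genes, and DESeq2 called 12 higher and 0 lower, or 8.51%, beside 8.91% of all genes. The yolk covariate gave 14 members higher and 0 lower (9.93%, beside 12% of all genes), and leaving out *old-1p::old-1* A gave 11 higher and 2 lower (9.03%, beside 22.7%). None of these shares of members exceeded that of all genes. The median log2 fold change of the members was 0.31, and their summed level was 805 to 882 CPM in the transgenic animals, against 544 to 701 CPM in the siblings. Levels of *fbxa-116* were 8.08, 2.61 and 2.77 CPM in the transgenic animals, against 0.326, 0.0330 and 0.288 CPM in the siblings (4.30, standard error 0.82, adjusted p = 0.147, edgeR). There were 65, 18 and 26 counts of *fbxa-28* with the array, against 0 in all 3 sibling libraries, at least 35.5-fold higher (adjusted p = 0.13, edgeR). Of *fbxa-174* there were 42, 18 and 38 counts with the array, against 0, 1 and 0 in the siblings, a ratio of 95.7 (95% counting interval 16.8 to 3820). Levels of *fbxa-71* were 1.99, 6.18 and 7.49 CPM, against 0.611, 0.297 and 0.657 CPM in the siblings (3.30, standard error 0.65). For these 4 genes every transgenic library was above every sibling library. They were picked for their response to extract, and the share of all genes that separate in this way was not counted. Of the 4, *fbxa-28* and *fbxa-174* passed the low-count filter here only through the transgenic libraries. Yolk level spread widely in this experiment, with *old-1p::old-1* A and sibling C the lowest of their groups. So did *fbxa-215*, with 30.7, 137 and 175 CPM with the array, against 67.0, 58.7 and 10.7 CPM in the siblings.

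Expression of *old-1* in the epidermis gave calls in both directions. In *dpy-7p::old-1* animals 24 of 143 members rose, beside 24.9% of all genes, and 20 fell, beside 20.9% of all genes (edgeR's quasi-likelihood test over 16141 genes), so neither count exceeded the share of all genes. The yolk covariate left 11 rises and 1 fall (8.39%, beside 12.8% of all genes called in either direction). The largest rises were those of *fbxa-28*, *fbxa-116*, *fbxa-174*, *fbxa-43* and *fbxa-47*, which also rose with extract. All but *fbxa-43* passed the low-count filter here only through the *dpy-7p::old-1* libraries. These 4 could be tested only because they were high, so for them the agreement with the extract response is no support. Levels of *fbxa-116* were 38.5, 38.9 and 56.7 CPM in *dpy-7p::old-1* animals, against 0.165, 0.0873 and 0.0389 CPM in the hygromycin control (8.68, standard error 0.32, adjusted p = 5.55e-07, edgeR). For *fbxa-28* the levels were 6.74, 7.16 and 11.3 CPM, against 0 in all 3 controls, at least 201.0-fold higher (adjusted p = 1.58e-05, edgeR). For *fbxa-174* they were 1.26, 1.03 and 1.37 CPM, against 0 in all 3 controls, at least 29.6-fold higher (adjusted p = 0.000216, edgeR). In the chromosome III cluster *fbxa-43* had 3.56, 3.60 and 8.73 CPM, against 0.413, 0.218 and 0.661 CPM in the control (3.48, standard error 0.47), and *fbxa-47* had 0.815, 0.514 and 0.661 CPM, against 0.0825, 0.0437 and 0.0389 CPM (3.39, standard error 0.61). Their neighbour *fbxa-71* started higher in these controls than in any other untreated or control group, with 6.93, 10.3 and 9.78 CPM in *dpy-7p::old-1* animals, against 2.15, 2.84 and 3.03 CPM (1.62, standard error 0.22). No group of these members overlapped with its control. They were named for their response to extract or for the size of this change. The share of all genes that separate in this way was not counted.

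Of the 40 members that rose in N2 with extract, 12 also rose in *dpy-7p::old-1* animals, which is 30% of the first list and 50% of the 24 in the second. These experiments share no libraries. Of the 40, 36 were tested in both, of which the 12 are 33.3%. Over all 15876 genes tested in both, 16.1% of those higher with extract were also higher in *dpy-7p::old-1* animals, beside 24.9% of all genes called higher there. Of all genes higher in *dpy-7p::old-1* animals and tested in both, 9.81% were also higher with extract, beside the 50% of members. The 12 include *fbxa-28*, *fbxa-174*, *fbxa-116* and *fbxa-47*. No hygromycin control library brought these up to the minimum of the low-count filter, so they passed it only through the animals where they are high. In the extract fit *fbxa-28*, *fbxa-171* and *fbxa-174* passed it only through extract-treated N2. For all such members the overlap is no support, since they could be tested only because they were high. The 12 were *fbxa-28*, *fbxa-36*, *fbxa-43*, *fbxa-47*, *fbxa-50*, *fbxa-71*, *fbxa-112*, *fbxa-116*, *fbxa-135*, *fbxa-171*, *fbxa-174* and *fbxa-182*. Opposite calls were made for *fbxa-156* and *fbxa-84*, which rose with extract and fell with *dpy-7p::old-1*, and for *fbxa-196*, which did the reverse. Other extract-responsive members did not follow: *fbxa-111* had 3.78, 4.07 and 3.04 CPM in *dpy-7p::old-1* animals, against 3.632, 2.227 and 4.005 CPM in the control (0.05, standard error 0.23), and *fbxa-44* had 3.41, 3.47 and 3.53 CPM, against 2.39, 1.61 and 2.45 CPM (0.58, standard error 0.21, adjusted p = 0.0362 with p over 0.01 in edgeR). Only 3 members, *fbxa-19*, *fbxa-59* and *fbxa-74*, fell in both, 15% of the 20 that fell with extract and were tested in both, beside 21.2% over all genes.

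**Figure D5:**
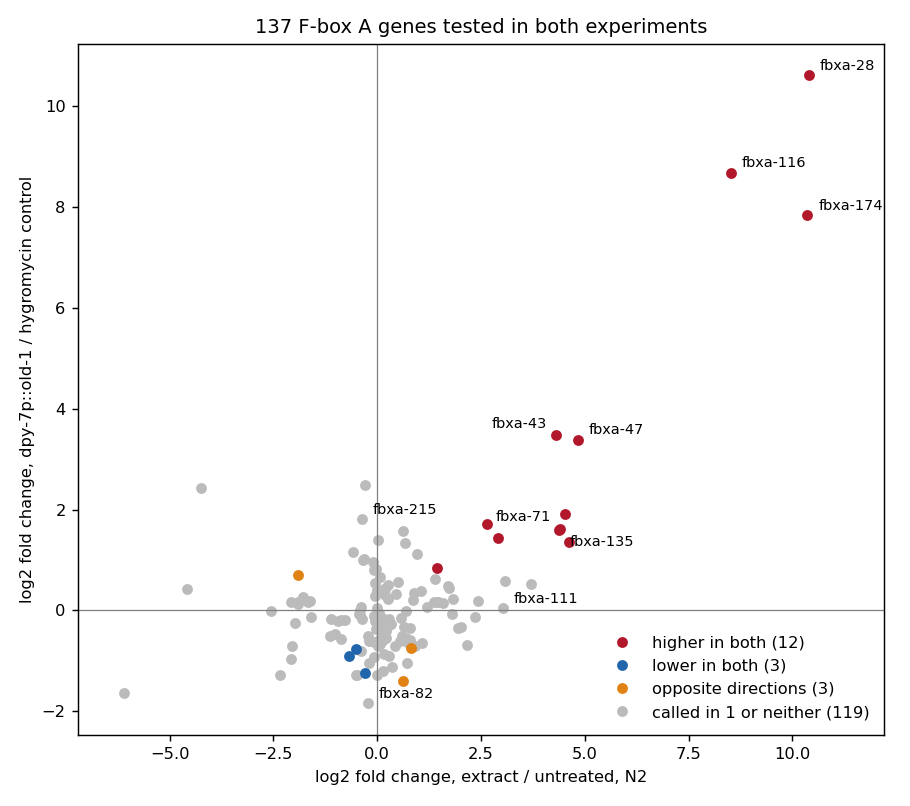
Log2 fold change in *dpy-7p::old-1* animals over the hygromycin control against that in extract-treated over untreated N2, for the 137 F-box A genes tested in both experiments. The 12 members higher in both include *fbxa-50* at 1.43 with extract and 0.84 with *dpy-7p::old-1*, and *fbxa-28*, whose control groups are at 0 counts, and 3 members are lower in both.

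The falls in *dpy-7p::old-1* animals were smaller. Levels of *fbxa-82* were 0.926, 1.11 and 1.76 CPM, against 4.09, 2.40 and 6.18 CPM in the control (−1.84, standard error 0.35), and levels of *fbxa-74* were 10.97, 10.11 and 10.97 CPM, against 21.5, 17.2 and 31.7 CPM (−1.24, standard error 0.19). Further falls among the largest were *fbxa-84* (−1.40), *fbxa-89* (−1.28) and *fbxa-32* (−1.28). With the yolk covariate, the calls of *fbxa-82*, *fbxa-74*, *fbxa-89* and *fbxa-32* were lost and that of *fbxa-84* was kept, as were those of *fbxa-28*, *fbxa-43*, *fbxa-116* and *fbxa-174*, while that of *fbxa-47* was lost.

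The most abundant members moved little with extract. In N2 with extract *fbxa-72* (WBGene00017962, chromosome V, 674886 to 676753) had 80.6, 83.7 and 90.7 CPM, against 110, 80.7 and 99.5 CPM without, *fbxa-101* had 22.3, 18.1 and 15.7 CPM, against 17.1, 19.1 and 19.1 CPM, and *fbxa-60* had 18.2, 13.8 and 17.8 CPM, against 16.6, 19.9 and 19.1 CPM. None of the 3 was called, nor was *fbxa-215* (−0.36), although *fbxa-72* was called lower in 6 of 15 alternatives and *fbxa-215* in 3 of 15. The exception besides *fbxa-116* was *fbxa-156*, which splits reads with *fbxa-157* in every library and had 36.54, 34.96 and 27.72 CPM with extract, against 16.8, 18.1 and 20.1 CPM without (0.80, standard error 0.14). In *dpy-7p::old-1* animals *fbxa-215* rose by 1.81, with 85.8, 105 and 78.4 CPM, against 26.4, 20.9 and 24.1 CPM in the control, and *fbxa-101* by 0.82. In those animals *fbxa-60*, *fbxa-156* and *fbxa-72* fell by 1.05, 0.74 and 0.51.

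The partners that an F-box protein needs were examined as a list of 36 SCF core subunits and regulators. In extract-treated N2 10 of 28 tested were higher and 1 lower than in untreated N2, beside 14.7% and 20.4% of all genes. The rises included the cullin *cul-6* (1.30, standard error 0.13) and the adaptors *skr-3* (1.14), *skr-4* (1.36) and *skr-5* (1.41), with *skr-19*, *skr-20*, *skr-21*, *skr-1*, *ula-1* and *dcn-1* rising by 0.61 or less, while the adaptor *skr-2* fell by 0.32. The main scaffold *cul-1* was not among the calls in N2. In *old-1(ok1273)* with extract 3 were higher, *cul-1* (1.02), *csn-6* (0.43) and *cand-1* (0.26), and 6 were lower, among them *skr-3* (−0.59). In *flor-1(icb93)* 0 were called. In *dpy-7p::old-1* animals 22 of 35 were higher and 2 lower, beside 24.9% and 20.9% of all genes, led by *skr-9* (3.51), *skr-13* (2.92) and *skr-7* (2.85), and *cul-1* rose by 0.48. Of the other F-box families, 20 of 104 F-box B genes and 28 of 48 F-box C genes were tested. In N2 with extract 3 of the F-box B genes were higher and 0 lower. Of the F-box C genes 1 was higher and 2 were lower, beside the same 14.7% and 20.4% of all genes. The median log2 fold change was 0.78 for F-box B (17 of 20 above 0) and 0.17 for F-box C (19 of 28). For F-box A it was 0.13 (86 of 145).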

How the data were processed

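Whole L4 animals gave 30 RNA libraries in 10 groups of 3. The authors assigned reads with kallisto to the WormBase WS283 transcriptome and deposited an estimated count and an effective length for each transcript and library, not scaled between libraries. The kallisto version is not given in the sources used here. The study's own tests (sleuth) were not used.

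Estimated counts were summed per gene and rounded to whole numbers. Of the transcripts, 30413 were matched to Ensembl release 115 by transcript name and 6631 by sequence name, while 12 found no match and 2 were ambiguous. Library totals were 19214839 to 38956390. Genes were kept by edgeR's filterByExpr (minimum count 5, minimum total 15), scaled by TMM and tested with edgeR 4.0.16 (quasi-likelihood F-test, R 4.3.3), in 1 fit of 18 libraries for the extract experiment and 1 fit of 6 for each transgene. The thresholds, those given in the study's figure legends, were p under 0.01 and Benjamini-Hochberg adjusted p under 0.1 over all genes tested. CPM values are counts over the library total, with no TMM factor. Values counted as whole were within 0.01 of a whole number. The tests were tested on simulated data.

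The members and the gene lists were chosen with earlier results of these data known. The named genes were *fbxa-71*, *fbxa-116* and *fbxa-174* from a gene list of the study, up to 14 risen and 8 fallen members of the N2 comparison and up to 5 each of the others (largest change, at least 0.5 CPM in the higher group), the 6 members of highest TPM, their neighbours, and called genes of the SCF list. Of the N2 genes so named, *fbxa-71*, *fbxa-116* and *fbxa-174* had been chosen by the study on these samples. The others that are named, such as *fbxa-182* and *fbxa-206*, were chosen after their values were seen. Alternatives were DESeq2 1.42.0, RLE size factors, other filters and thresholds, fits of the compared groups only, a replicate block, the yolk and oocyte level as a covariate, untreated N2 A alone, and the leaving out of each library.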

Additional observations from a re-analysis of the deposited data

Results flagged for a closer look

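The response of a mutant to extract differed from that of N2 by the interaction test for the members below, 5 in each direction for each mutant. Each value is the difference of log2 fold changes, mutant minus N2, in edgeR's quasi-likelihood fit. In *old-1(ok1273)* the difference was −10.85 for *fbxa-174*, −9.15 for *fbxa-116*, −8.21 for *fbxa-171*, −4.84 for *fbxa-135* and −4.81 for *fbxa-47*. In *flor-1(icb93)* it was −9.53 for *fbxa-174*, −8.35 for *fbxa-116*, −5.26 for *fbxa-47*, −4.73 for *fbxa-135* and −4.55 for *fbxa-71*. For *fbxa-174* and *fbxa-171* 1 of the groups stood at 0 counts, so the fitted value depends on the prior count and is no bound.

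In the other direction, the *old-1(ok1273)* difference was 2.56 for *fbxa-201*, 2.36 for *fbxa-224*, 2.20 for *fbxa-196*, 2.12 for *fbxa-183* and 2.05 for *fbxa-155*. The *flor-1(icb93)* difference was 6.77 for *fbxa-147*, 2.68 for *fbxa-224*, 2.07 for *fbxa-201*, 1.98 for *fbxa-141* and 1.94 for *fbxa-155*. Both mutants are set against the same N2 libraries.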

How the results depend on the processing

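With the yolk and oocyte covariate, the members called numbered 40 in N2 with extract, 36 for the *old-1(ok1273)* response difference, 14 in untreated *old-1(ok1273)*, 14 in *old-1p::old-1* and 12 in *dpy-7p::old-1*. With only the compared groups fitted they were 36 in N2 (26.7% of the members tested, beside 14.4% of all genes). Untreated *old-1(ok1273)* then had 21 (16.3%, beside 22.7%) and untreated *flor-1(icb93)* 23 (17.6%, beside 27%). With untreated N2 A alone, the median log2 fold change of the members was 0.15 in N2 and 0.25 in untreated *old-1(ok1273)*. DESeq2 called 12 in *old-1p::old-1*. Leaving out 1 library gave 49 to 65 in N2, 19 to 24 in *old-1(ok1273)*, 0 to 0 in *flor-1(icb93)*, 48 to 70 and 32 to 58 for the response differences of *old-1(ok1273)* and *flor-1(icb93)*, 25 (without untreated N2 B) to 58 (without A) and 26 to 43 for these mutants untreated, 0 to 13 (without *old-1p::old-1* A) in *old-1p::old-1* and 30 to 41 in *dpy-7p::old-1*. Without untreated N2 C, untreated *old-1(ok1273)* had 27 (18.1% of the members tested, beside 30.2% of all genes). Without untreated N2 A, N2 had its 65 (43.9%, beside 45.0%) and untreated *old-1(ok1273)* its 58 (39.2%, beside 48.3%). The 70 and 58 for the response differences also came without untreated N2 A (47.3%, beside 41.6%, and 39.2%, beside 36.6%). The 49 in N2 came without extract-treated N2 A (32.7%, beside 29.1%). With the covariate and with A alone, N2 values turned to 0.17 and 0.16 for *fbxa-202*, 0.0058 and 0.0055 for *fbxa-196*, and 0.59 and 0.68 for *fbxa-155*. The *old-1(ok1273)* differences turned to −0.22 and −0.042 for *fbxa-224* and −0.57 and −0.41 for *fbxa-155*, and the *flor-1(icb93)* difference to −0.44 and −0.53 for *fbxa-155*. Untreated *old-1(ok1273)* turned to 0.49 and 0.12 for *fbxa-147* and 0.79 and 0.63 for *fbxa-196*, and untreated *flor-1(icb93)* to 1.64 for *fbxa-147* with A alone. The cause was not tested. Of all alternatives for named genes, 1117 kept direction and call, 153 lost the call, 9 gained it and 17 turned. Samples of the same letter or number share only that in the labels, with no pairing given, and same-lettered N2 deviations correlated at −0.10, −0.01 and −0.16. With a replicate block 58 members were called in N2 (40% of the members tested, beside 34.3% of all genes). In *old-1(ok1273)* there were 26 (17.9%, beside 23.7%) and in *flor-1(icb93)* 0. The response differences of *old-1(ok1273)* and *flor-1(icb93)* had 53 and 40, both shares above those of all genes. These mutants untreated had 37 (25.5%, beside 37.2%) and 35 (24.1%, beside 40.3%). The block left 0 in *old-1p::old-1* and 33 in *dpy-7p::old-1* (23.1%, beside 39.2%). Depth limits members under 0.1 CPM, for which a few counts decide the value.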

Other observations

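The run of *fbxa-107*, *fbxa-210* and *fbxa-211* on chromosome V (18123939 to 18128888), chosen after its values were seen, held no call in N2 with extract and 3 rises in *dpy-7p::old-1* animals. There *fbxa-210* had 19.1, 17.2 and 18.1 CPM in *dpy-7p::old-1* animals, against 8.17, 8.56 and 7.97 CPM in the hygromycin control (log2 fold change 1.03, standard error 0.14, adjusted p = 0.000315 in edgeR). The levels of *fbxa-211* were 5.93, 6.30 and 4.10 CPM, against 2.72, 2.18 and 2.88 CPM in the control (0.96). Neither overlapped between groups.

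In the same animals *fbxa-170* had 5.82, 6.60 and 5.24 CPM, against 1.40, 0.437 and 1.09 CPM in the control (2.49, standard error 0.30, adjusted p = 0.000144 in edgeR). In *old-1p::old-1* animals it had 1.33, 14.5 and 19.1 CPM, against 4.08, 4.69 and 0.205 CPM in the siblings, where both groups spread widely and overlapped. A different member, *fbxa-206*, had 14.6, 15.8 and 14.8 CPM in *dpy-7p::old-1* animals, against 5.32, 4.58 and 5.95 CPM in the control (1.40, standard error 0.14).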
